A study of Mus musculus with 14 samples.

Results

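The histone genes of the mouse were followed in oocytes with and without Clpx. Members were the genes whose symbol, in the tables for germinal vesicle (GV) or ovulated oocytes, belongs to the current H1f, H2ac, H2bc, H3c or H4c series, or is H2aj, H2ax, H2az or H3f3, with pseudogene symbols left out. This gave 67 genes of the 18562 listed. Of these, 57 were counted as replication-dependent genes (5 of H1, 16 of H2A, 15 of H2B, 10 of H3 and 11 of H4) and 10 as variants (3 of H1, 4 of H2A and 3 of H3). H2ac1 and H2bc1, which are also named Th2a and Th2b, were counted as replication-dependent throughout. In GV oocytes 66 of them were listed and in ovulated oocytes 55, with 54 in both. By RefSeq positions on GRCm38, 48 members lay on chromosome 13 and 9 in a second cluster on chromosome 3. The 48 spanned chr13:21715711-23934913.

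RNA was measured in 14 oocyte libraries. All mice carried floxed Clpx (Clpx fl/fl), the gene for the unfoldase subunit of a mitochondrial matrix protease. Mice without Cre are labelled WT, and mice that also carried Zp3-Cre, driven by a zona pellucida promoter active in growing oocytes, are labelled CKO. There were 4 WT and 4 CKO libraries of GV oocytes, which are arrested in meiotic prophase, and 3 WT and 3 CKO libraries of ovulated oocytes, which have resumed meiosis. The labels call the samples single-cell and give no age of the mice, no number of oocytes or animals and no batches. They do not say that libraries came from separate animals, so p-values measure the spread between these libraries only. Fewer cells in a library and less RNA per cell cannot be told apart.

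DNA is wrapped around octamers of the core histones H2A, H2B, H3 and H4, and linker histone H1 binds where it enters and leaves the particle. Replication-dependent genes are clustered, supply new chromatin during S phase and give mRNAs that end in a conserved stem-loop in place of a poly(A) tail. Variant genes are scattered, mostly give polyadenylated mRNA and are used outside S phase. Oocytes store histone mRNA and protein for the cleavage divisions of the embryo, and they carry an oocyte-specific linker histone, H1f8. The libraries were made with SMART-Seq2, whose usual first step primes from poly(A) tails. All counts, those of stem-loop mRNAs included, are therefore counts of the molecules that this chemistry captured. Below, rose and fell compare captured levels between groups of libraries. Whether mRNA was made, lost or captured differently was not tested.

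The stem-loop is shown first because it divides the members. GENCODE M21 transcripts (GRCm38) were searched in the 150 bases after the stop codon for a 16-base hairpin. The hairpin had 6 paired bases on each side, began with GG, ended with CC and had a 4-base loop with T at the first and the third position. It was found in 40 of the 57 replication-dependent genes, between 21 and 58 bases after the stop codon. Among all coding genes it was found in 70 of 21901 (0.32%). Capitals mark the paired arms of each form below.
Stem-loop of 23 genes, among them H2ac18 and H2bc11: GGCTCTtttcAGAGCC
Stem-loop of 6 H4 genes, among them H4c4 and H4c8: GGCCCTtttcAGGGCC
Stem-loop of 5 genes, among them H2bc12 and H3c7: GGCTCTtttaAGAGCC
Stem-loop of H4c1: GGCCCTtctcAGGGCC
Stem-loop of H2ax, the only variant with one: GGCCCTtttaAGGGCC

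Of the 17 replication-dependent genes without a match, 13 had an annotated 3′ untranslated region under 30 bases. The other 4 were H2bc4, H1f1, H3c13 and H2bc21. Of these, H1f1 and H3c13 had 48 and 37 bases, too short for a hairpin at the farther of the distances found. The H2bc4 transcript used is spliced and carries a 3′ untranslated region of 742 bases with no match in the window searched. The H2ac1 transcript ends at its stop codon in this annotation.

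Start-site windows from RefSeq (GRCm38.p6, 250 bases before to 50 after the start) were available for 61 members in 62 windows. Searched on both strands, the motif TATAAA stood in 58.5% of the windows of replication-dependent members and in 13.6% of all 32851 windows. CCAAT stood in 86.8% against 37.4%, in all windows of replication-dependent H1, H2A, H2B and H3 and in 3 of 10 of H4. The octamer ATTTGCAT stood in 24.5% against 1.74%, in 6 of 16 windows of replication-dependent H2A, 7 of 14 of H2B and none of H1, H3 or H4. None of these motifs contains another, and a match is a description of the sequence. The 150 bases before the start site are printed for 2 H4 genes with the same stem-loop form that differed in direction between the stages of WT oocytes, and for H1f8. Capitals mark TATAAA, or CCAAT read on the other strand as ATTGG.
H4c4, chr13:23581418-23581567, plus strand: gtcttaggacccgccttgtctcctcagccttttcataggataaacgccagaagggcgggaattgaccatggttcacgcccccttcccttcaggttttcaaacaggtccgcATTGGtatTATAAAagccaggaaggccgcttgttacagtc
H4c8, chr13:23530894-23531043, plus strand: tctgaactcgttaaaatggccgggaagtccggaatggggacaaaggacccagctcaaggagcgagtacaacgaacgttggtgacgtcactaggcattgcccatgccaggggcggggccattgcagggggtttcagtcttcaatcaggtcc
H1f8, chr6:115944781-115944930, plus strand: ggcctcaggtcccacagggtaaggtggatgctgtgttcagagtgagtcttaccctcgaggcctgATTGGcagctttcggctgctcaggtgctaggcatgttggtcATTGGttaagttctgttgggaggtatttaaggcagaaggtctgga

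Total estimated counts per library were between 25086506 and 28471453. Clpx was between 39.6 and 58.1 counts per 1000000 counts (CPM) in GV WT and between 0.676 and 1.44 CPM in GV CKO libraries. In ovulated oocytes it was between 17.0 and 19.1 CPM in WT and between 0.269 and 0.575 CPM in CKO libraries, so every library matched its label. All 14 oocyte markers had counts in every group, with a summed level between 16024 and 70607 CPM. Of 19 granulosa and cumulus markers, between 11 and 17 had a count in a group, with sums between 47.1 and 129.6 CPM. Cyp19a1 alone held between 31.0 and 105 CPM. Nr5a2 held between 5.80 and 17.2, Cyp11a1 between 1.06 and 11.8 and Kitl between 1.46 and 10.3 CPM. Tnfaip6, listed in ovulated oocytes only, reached 12.1 CPM in a WT library. The remaining markers reached at most 3.38 CPM (Inhba). Among these, Amh and Foxl2, listed in GV oocytes only, stayed at or under 0.11 CPM. Between the stages of WT oocytes 3 of 12 tested granulosa and cumulus markers rose and 1 fell (29.7% and 34.0% of all genes). In CKO oocytes 2 rose and 3 fell (25.8% and 29.9%). Of 18 theca, stromal, endothelial and blood markers, 4 were tested, and 3 rose in WT and 2 in CKO oocytes, with 0 falling. Among them, Pecam1 had a mean of 35.0 CPM in GV WT and 68.7 CPM in ovulated WT libraries. The part of these cells in the histone results was not tested. The TMM scaling factor, which corrects CPM for the makeup of a library, ran from 0.654 to 1.12 in GV and from 1.03 to 1.37 in ovulated libraries. Without it, in CPM of total counts, the median log2 fold change of all genes was 0.26 in place of −0.08 for ovulated over GV oocytes in WT. In CKO oocytes it was 0.45 in place of −0.14, and for GV CKO over WT −0.14 in place of 0.02. Directions below are on TMM-scaled CPM, and results that total counts alter are named.

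Levels of different genes were compared in FPKM as deposited, which is per length. In GV WT oocytes 4 of the 66 listed members had a mean above 100 FPKM, 6 lay between 10 and 100, and 37 were under 1 FPKM. H1f8 led every group, with 6179 ± 539 FPKM (SD, n = 4) in GV WT and 9374 ± 2471 (SD, n = 3) in ovulated WT oocytes. It held 72.7% of the summed FPKM of all members in GV WT oocytes and stood between rank 2 and rank 13 among all genes of a library. The genes for H3.3 came next. H3f3a had 1001 ± 390 and H3f3b 887 ± 49.7 FPKM (SD, n = 4) in GV WT, which did not differ beyond their spread. In ovulated WT oocytes H3f3b had 1834 ± 477 and H3f3a 604 ± 412 FPKM (SD, n = 3).

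By group mean H2bc4, an H2B gene, was the fourth in every group and the first among replication-dependent members. In ovulated WT oocytes its place above H2az1 rested on library 2, with 199.9 FPKM. In libraries 1 and 3 H2bc4 had 56.2 and 36.8 FPKM, and H2az1 had 57.9 and 110.5 FPKM. The replication-dependent H2ac1 also lay above H2bc4 in library 3, at 37.1 FPKM. H2bc4 alone held 67.1% of the summed FPKM of replication-dependent members in GV WT and 31.3% in ovulated WT oocytes. H2az1, which encodes the variant H2A.Z.1, was the fifth in every group, with 31.2 ± 16.2 FPKM in GV WT (SD, n = 4). H2ax, H2ac18, H2ac1 and H2az2 followed in GV WT at 21.7 ± 10.6, 20.8 ± 4.39, 19.8 ± 4.13 and 17.7 ± 3.07 FPKM (SD, n = 4), and their ranges overlapped. Replication-dependent members that had the stem-loop summed to 82.4 ± 13.1 FPKM in GV WT (SD, n = 4), of 346 ± 74.4 for all 57.

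**Figure D1:**
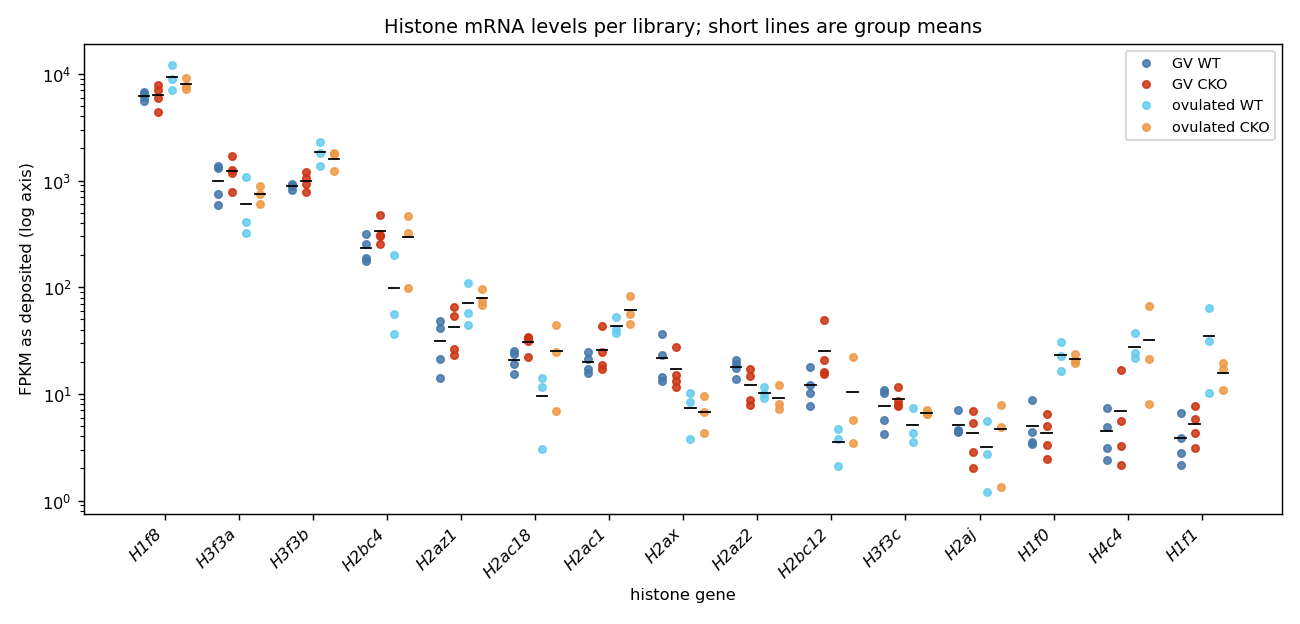
FPKM as deposited (log axis) of 15 histone genes in each of the 14 libraries, coloured by group, with a short line at each group mean. H1f8 lies at 4430 FPKM or more in all libraries, H3f3a and H3f3b follow, and H2bc4 has the highest group means among replication-dependent genes.

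Ovulated and GV oocytes of WT mice were compared to see which stored histone mRNAs differ after meiosis resumes. Each stage was deposited in its own tables. Differences of stage and of processing therefore cannot be told apart, in WT or in CKO oocytes. Of the 31 members tested, 9 rose and 9 fell, in both directions within H2A, H2B, H3 and H4. The oocyte linker histone H1f8 did not pass, while the somatic-type linker genes H1f0, H1f1 and H1f4 rose 3.76-, 6.72- and 5.34-fold. The H3.3 genes split, with H3f3b up and H3f3a down, and so did the H2A.Z genes, with H2az1 up and H2az2 down. Among replication-dependent genes, H4c4, H2bc11, H3c7 and H2ac1 rose and H4c8, H2bc12, H2bc9, H2bc4 and H2ac18 fell.

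The test was edgeR's quasi-likelihood test with Benjamini-Hochberg adjustment at 0.05. Members called made up 58.1% of those tested, and 63.7% of all 13158 genes were called (29.7% up and 34.0% down), so the histone share was near the background. The median log2 fold change of the 31 members was −0.20, beside −0.08 for all genes. In CPM of total counts 10 members rose and 3 fell (beside 34% and 26.7% of all genes), with 9 of the 9 and 3 of the 9 kept and H1f8 added. The members' median was then 0.24, of the opposite sign, beside 0.26 for all genes. Its sign also turned without a filter on low counts (0.21), with DESeq2 (0.23), in a fit of the WT libraries alone (0.05) and without GV WT library 2 (0.33), GV WT library 4 (0.26) or ovulated WT library 1 (0.05). Leaving out any 1 library gave between 6 and 10 members up and between 4 and 11 down. The 8 calls that held under all 13 alternatives were H1f0, H1f1, H2ac1, H2ax, H2bc11, H2bc12, H4c4 and H4c8.

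Among linker genes, H1f8 (chr6:115944931-115950242), the oocyte linker histone, had 4947, 6846, 4350 and 8334 CPM in the GV WT libraries. The ovulated WT libraries had 10433, 4814 and 7229 CPM. These ranges overlapped, and the log2 fold change was 0.29 ± 0.37 (SE; edgeR adjusted p = 0.497). In CPM of total counts H1f8 was 0.65 higher on the log2 scale, with edgeR adjusted p = 0.0171.

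H1f0 (chr15:79028212-79030504), a linker histone typical of non-dividing somatic cells, had 16.8, 8.26, 7.99 and 10.0 CPM in GV WT libraries. Ovulated WT libraries had 45.3, 46.8 and 29.4 CPM. Every ovulated library lay above every GV library, and the log2 fold change was 1.91 ± 0.31 (SE; edgeR adjusted p = 5.72e-05). H1f1, a replication-dependent H1 gene with no stem-loop match, had 1.28, 4.00, 0.954 and 2.71 CPM at the GV stage and 5.03, 24.99 and 14.8 CPM after ovulation. The groups did not overlap, the ovulated libraries were uneven, and the log2 fold change was 2.75 ± 0.52 (SE; edgeR adjusted p = 0.000265). H1f4, another replication-dependent H1 gene, rested on 6 counts over the 4 GV WT libraries and 29 over the 3 ovulated ones. That gave a ratio of 5.47 with an exact 95% counting interval from 2.23 to 16.1, and the call was lost without GV WT library 2, 3 or 4 or ovulated WT library 3 (adjusted p up to 0.164). H1f10 was at or under 0.254 CPM in every library and was not tested.

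The H3.3 genes, H3f3a (chr1:180802560-180813605) and H3f3b (chr11:116021961-116026039), encode the same variant, which is placed into chromatin outside S phase. Their coding sequences are 76.7% identical, and their transcripts share no stretch of 75 bases. The length of the reads was not compared with this. Deposited counts of both genes were fractional in some libraries (H3f3a 30897.4 in GV WT library 2, H3f3b 44683.6 in GV WT library 1). H3f3a had 461, 1316, 557 and 1591 CPM in GV WT libraries and 265, 690 and 316 CPM in ovulated WT libraries. GV WT libraries 1 and 3 were low for H3f3a and also lowest for H1f8, and these were the 2 GV WT libraries with a TMM factor above 1 (1.07 and 1.12). In deposited FPKM, which TMM does not scale, H3f3a had 591, 1304, 745 and 1361 in the GV WT libraries. The cause was not tested. The stages overlapped, and the log2 fold change was −1.21 ± 0.47 (SE; edgeR adjusted p = 0.0344). The call was lost in CPM of total counts (−0.67, adjusted p = 0.142) and without GV WT library 2 or 4 or ovulated WT library 1 or 3 (adjusted p from 0.129 to 0.205).

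H3f3b had 1470, 1963, 1481 and 2037 CPM in GV WT libraries and 3976, 1805 and 2843 CPM in ovulated WT libraries. Only ovulated library 2 lay within the GV range. The log2 fold change was 0.73 ± 0.30 (SE; edgeR adjusted p = 0.0429) and 1.05 in CPM of total counts, with adjusted p = 0.000588. The call was lost without GV WT library 1 or 3 or ovulated WT library 1 or 3 (adjusted p from 0.0727 to 0.171), and in a fit of the WT libraries alone. H3f3c, a copy of H3f3a on chromosome 2, had between 0.591% and 1.24% of the counts of H3f3a in each library. It fell by 1.05 on the log2 scale (edgeR adjusted p = 0.0467), and whether its reads come from H3f3a is uncertain. Its call was lost without GV WT library 2 or 4 or ovulated WT library 1 or 3 (adjusted p up to 0.272), in CPM of total counts, with DESeq2 size factors in edgeR, without a filter on low counts, in a fit of the WT libraries alone and with the replicate number as a block.

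The H2A variants moved apart. H2ax (chr9:44334715-44336077), whose product marks DNA breaks once phosphorylated, had 37.7, 17.9, 22.8 and 22.2 CPM in GV WT libraries. Ovulated WT libraries had 4.14, 8.55 and 8.39 CPM, all below the GV libraries, and H2ax fell by 1.84 ± 0.38 on the log2 scale (SE; edgeR adjusted p = 0.000492). H2az1 (chr3:137864487-137866922) and H2az2 (chr11:6427226-6444511) encode forms of H2A.Z, found at promoters, and are 79.2% identical in coding sequence. H2az1 had 31.7, 20.8, 35.0 and 15.9 CPM at the GV stage and 46.0, 27.9 and 82.4 CPM after ovulation. These overlapped. On the log2 scale H2az1 was 1.01 ± 0.40 higher (SE; edgeR adjusted p = 0.0375), and the call was lost without GV WT library 2 or 4 or ovulated WT library 3 (adjusted p up to 0.312).

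H2az2 was far more even. It had 27.0, 29.0, 23.4 and 26.2 CPM in GV WT libraries and 12.2, 12.1 and 12.4 CPM in ovulated WT libraries. The groups lay apart and the log2 fold change was −1.11 ± 0.27 (SE; edgeR adjusted p = 0.00173), but in CPM of total counts it was −0.76 with adjusted p = 0.069. H2aj had 8.76 ± 1.83 CPM in GV WT (SD, n = 4) and 4.09 ± 2.40 CPM in ovulated WT oocytes (SD, n = 3), with edgeR adjusted p = 0.0701.

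Among H2B genes, H2bc4 (chr13:23684199-23692480) had 114, 109, 137 and 117 CPM in GV WT libraries. Ovulated WT libraries had 26.6, 75.8 and 16.5 CPM, all below the GV libraries but unevenly so, with library 2 the highest. The log2 fold change was −1.59 ± 0.47 (SE; edgeR adjusted p = 0.00734). It was −1.22 without ovulated WT library 1 (adjusted p = 0.0708), −2.51 without ovulated WT library 2 and −1.17 in CPM of total counts (adjusted p = 0.0601). H2bc12 fell from between 1.80 and 5.49 to between 0.538 and 0.997 CPM, by 2.03 ± 0.59 on the log2 scale (SE; edgeR adjusted p = 0.00677). H2bc11 rose from between 0.495 and 1.01 to between 1.90 and 3.72 CPM, by 1.70 ± 0.41 (SE; edgeR adjusted p = 0.00174). H2bc9 rested on 37 counts in GV WT and 6 in ovulated WT oocytes, a ratio of 0.183 with an exact 95% counting interval from 0.0633 to 0.438. Its call was lost in CPM of total counts, without a filter on low counts and without any of the WT libraries but GV WT library 1 (adjusted p up to 0.123).

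Among H2A genes, H2ac1, which lies at the edge of the chromosome 13 cluster beside H2bc1, had 4.51, 4.85, 5.13 and 5.12 CPM in GV WT libraries. Ovulated WT libraries had 12.3, 7.99 and 8.92 CPM, all higher, and the log2 fold change was 0.99 ± 0.29 (SE; edgeR adjusted p = 0.00763). H2ac18 went the other way, with 7.15, 7.08, 6.46 and 6.73 CPM at the GV stage and 0.943, 3.57 and 3.57 CPM after ovulation. The groups lay apart (log2 fold change −1.34 ± 0.49, SE; edgeR adjusted p = 0.0251). The call was lost without GV WT library 2 or 4 or ovulated WT library 1 (adjusted p up to 0.143) and in CPM of total counts. The coding sequence of H2ac18 is identical to that of its neighbour H2ac19, so the split of counts between them is uncertain.

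In H3 and H4, H4c4 (chr13:23581568-23581969) had 0.723, 1.45, 0.443 and 0.552 CPM in GV WT libraries and 3.61, 5.30 and 4.27 CPM in ovulated WT libraries. No library overlapped, and the log2 fold change was 2.48 ± 0.66 (SE; edgeR adjusted p = 0.00358). H4c8 (chr13:23531044-23531478) had 2.43, 1.67, 1.51 and 0.877 CPM against 0.113, 0.120 and 0.0382 CPM. Its 176 GV counts and 8 ovulated counts give a ratio of 0.0514 with an exact 95% counting interval from 0.0219 to 0.104 (edgeR adjusted p = 0.000355). The 2 genes encode the same protein class with coding sequences that are 93.9% identical and share the stem-loop form printed above, yet their stage differences had opposite signs. H3c7 rose from 1.29 ± 0.37 (SD, n = 4) to 2.84 ± 1.32 CPM (SD, n = 3; edgeR adjusted p = 0.022). That call was lost without GV WT library 1 or 3 or ovulated WT library 2 (adjusted p up to 0.126). Of the 17 tested replication-dependent genes with a stem-loop, 4 rose and 4 fell, with a median log2 fold change of −0.26. Of the 5 without a match, 2 rose and 1 fell, with a median of 0.99. Beside these counts, 29.7% of all genes rose and 34.0% fell. Among the 5, H2ac1, H2bc1 and H2bc18 end at their stop codon in this annotation, so no stem-loop could be found in them. The medians therefore do not compare genes known to have and to lack a stem-loop.

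**Figure D2:**
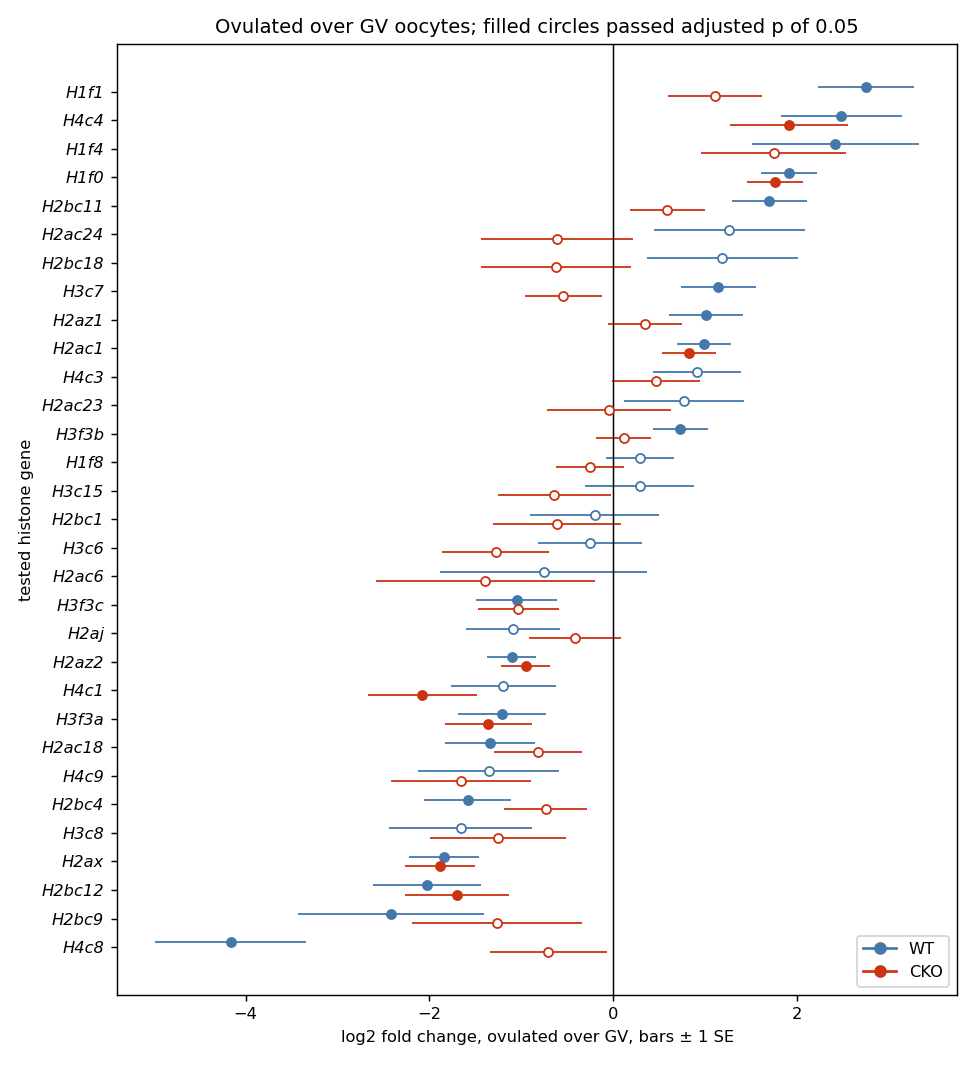
Log2 fold change of ovulated over GV oocytes (horizontal axis, bars ± 1 SE) for the 31 tested histone genes in WT (blue) and CKO (red), with filled circles where adjusted p was under 0.05. H1f0, H2ac1 and H4c4 are filled to the right in both genotypes, and H2ax, H2az2, H2bc12 and H3f3a to the left.

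The same contrast in CKO oocytes called 8 histone genes. Of the 31 members tested, 3 rose (H1f0, H2ac1 and H4c4) and 5 fell (H2ax, H2az2, H2bc12, H3f3a and H4c1), with a median log2 fold change of −0.62 beside −0.14 for all genes. Members called made up 25.8%, beside 55.7% of all 13158 genes (25.8% up and 29.9% down). DESeq2, run on 54 members without the filter on low counts, called 3 up and 11 down, beside 47.9% of its 16417 genes in either direction. Among the 11, H2ac11, H2ac12 and H4c2 had no counts in ovulated CKO libraries. H1f0 rose by 1.76 ± 0.31 on the log2 scale (SE; edgeR adjusted p = 0.000179) and H2ax fell by 1.89 ± 0.38 (SE; edgeR adjusted p = 0.000559). These 2 calls held under all 13 alternatives. Of the 18 members called in WT, 7 were called in the same direction in CKO, beside 78% of the 8376 genes called in WT.

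H1f0 in CKO libraries had 14.8, 6.93, 9.81 and 10.3 CPM at the GV stage and 34.7, 36.3 and 35.4 CPM after ovulation, with no overlap. H2ax had 35.1, 20.7, 16.2 and 19.7 CPM against 8.66, 5.60 and 4.32 CPM, also apart. H4c4 had 1.06, 0.495, 2.65 and 0.762 CPM against 9.75, 1.07 and 3.44 CPM, where the high value of ovulated CKO library 1 stands out. H4c4 rose by 1.91 ± 0.64 on the log2 scale (SE; edgeR adjusted p = 0.0181), but without that library it was 0.85 with adjusted p = 0.266. H2ac1 also lost its call without it (0.59, adjusted p = 0.125, against 0.82 with it).

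H4c1 fell by 2.08 ± 0.59 on the log2 scale in CKO oocytes (SE; edgeR adjusted p = 0.00683) and kept its call without any 1 library, though not in CPM of total counts (adjusted p = 0.06). H3f3a fell by 1.36 ± 0.48 (SE; edgeR adjusted p = 0.0229), and the call was lost without GV CKO library 2 or 4 or ovulated CKO library 2 or 3 (adjusted p up to 0.111). H2bc12 fell by 1.70 ± 0.56 (SE; edgeR adjusted p = 0.017), and the call was lost without GV CKO library 3 or ovulated CKO library 2 or 3 (adjusted p up to 0.0688). In CPM of total counts 6 members rose and 1 fell (beside 35.6% and 17.2% of all genes), the 1 being H2ax, and H1f1, H1f4 and H3f3b were added to those that rose. Without ovulated CKO library 1, 1 member rose and 10 fell, beside 24.2% and 28.6% of all genes. H1f8 in CKO oocytes was 7079 ± 2395 CPM at the GV stage (SD, n = 4) and 5932 ± 1288 after ovulation (SD, n = 3). Its log2 fold change was −0.26 ± 0.37 (SE; edgeR adjusted p = 0.573), and 0.39 in CPM of total counts.

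Loss of Clpx was then compared within each stage. In GV oocytes 21 of the 27 histone genes tested had a log2 fold change above 0, with a median of 0.48 beside 0.02 for all genes, but none passed. A fold change above 0 was seen in 52.8% of all 12265 genes. The edgeR test called 3 genes in all (0.0245%) and 0 histone genes, and 4 members had an unadjusted p under 0.05 (beside 5.74% of all genes), namely H2bc4, H2ac18, H2bc12 and H2ac1. DESeq2 called 33 genes (0.183%) and 0 members. In replication-dependent genes the fold changes were above 0 in 16 of 18, against 5 of 9 variants, with medians of 0.52 and 0.21. Histone genes share libraries and some share reads, so their directions are not independent of one another.

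H2bc4 in GV oocytes had 114, 109, 137 and 117 CPM in WT libraries and 166, 172, 222.6 and 222.5 CPM in CKO libraries. Each CKO library was above each WT library, and the log2 fold change was 0.72 ± 0.18 (SE; edgeR adjusted p = 0.583). H2ac18 had 7.15, 7.08, 6.46 and 6.73 CPM in WT and 12.1, 9.61, 10.4 and 14.5 CPM in CKO libraries. These lay apart too, and the difference was 0.76 ± 0.21 on the log2 scale (SE; edgeR adjusted p = 0.639). H2bc12 had 1.80, 5.49, 2.76 and 3.69 CPM in WT and 6.19, 5.71, 12.3 and 5.83 CPM in CKO libraries, and GV CKO library 3 was far above the other CKO libraries. Its log2 fold change was 1.14 ± 0.37 (SE; edgeR adjusted p = 0.732).

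On TMM-scaled CPM, 5 of the 27 members had CKO libraries that all lay above the WT libraries (H2bc4, H2ac18, H2bc12, H2ac1 and H3f3b), beside 1.36% of all genes, and none lay below, beside 2.29%. In CPM of total counts, and in the deposited FPKM, 0 of the 27 members were apart in this way, beside 0.261% and 0.269% of all genes. None lay below there either, beside 3.03% and 2.89%. The separation of the groups therefore held on 1 of the 3 scales. The median of the members lay 0.46 above that of all genes on TMM scaling and 0.54 above it on total counts. With 1 library left out it was between 0.28 (without GV WT library 3) and 0.55. Among variants, H2az1 had the largest log2 fold change (0.72 ± 0.36, SE) and H2az2 the lowest (−0.40 ± 0.20, SE), both with edgeR adjusted p = 0.834. H1f8 was 0.21 ± 0.35 (SE; edgeR adjusted p = 0.928) and H3f3b 0.32 ± 0.23 (SE; edgeR adjusted p = 0.852).

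**Figure D3:**
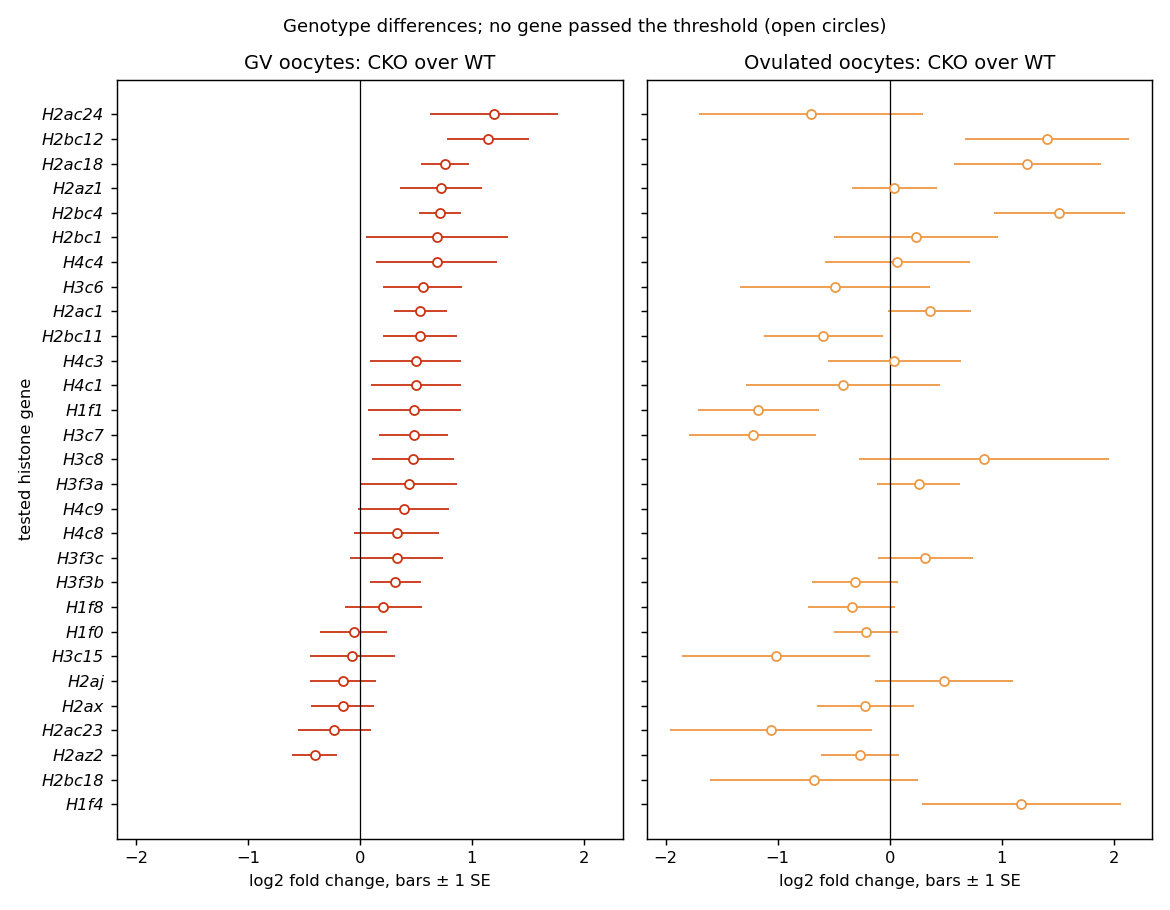
Log2 fold change of CKO over WT (horizontal axis, bars ± 1 SE) for the tested histone genes in GV oocytes (left) and ovulated oocytes (right), with genes ordered by the GV value. In GV oocytes 21 of 27 points lie above 0, in ovulated oocytes 13 of 27, and no gene passed adjusted p of 0.05.

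In ovulated oocytes 13 of the 27 tested members had a fold change above 0 and 14 below, beside 50.0% above 0 of all 12044 genes. The median was −0.21 beside 0.00 for all genes, and 0.03 with DESeq2 or without a filter on low counts. The edgeR test called 1 gene in all (0.0083%) and 0 histone genes. H2bc4 alone had an unadjusted p under 0.05, beside 7.76% of all genes, and DESeq2 called 119 genes (0.704%) and 0 members. H2bc4 had 26.6, 75.8 and 16.5 CPM in WT libraries and 188, 120 and 43.8 CPM in CKO libraries. The groups overlapped through ovulated CKO library 3 and WT library 2. The log2 fold change was 1.51 ± 0.58 (SE; edgeR adjusted p = 0.596).

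H2bc12 and H2ac18 leaned the same way, at 1.41 ± 0.74 and 1.23 ± 0.66 on the log2 scale (SE; edgeR adjusted p = 0.693 and 0.704). H2ac18 had 0.943, 3.57 and 3.57 CPM in WT and 11.7, 6.02 and 2.04 CPM in CKO libraries. In all 3 genes ovulated CKO library 1 was the highest and ovulated CKO library 3 the lowest of the CKO libraries, and library 3 lay inside the WT range. H3c7 and H1f1 leaned down, at −1.22 ± 0.57 and −1.17 ± 0.54 (SE; edgeR adjusted p = 0.656 and 0.65). No tested member had CKO libraries wholly above or below the WT libraries, beside 5.51% and 5.11% of all genes. H1f8 (−0.34 ± 0.39, SE), H3f3a (0.26 ± 0.37, SE) and H3f3b (−0.30 ± 0.38, SE) did not pass, with edgeR adjusted p of 0.846, 0.879 and 0.861. Left-out libraries kept the count of called members at 0, although without ovulated CKO library 3 the number of all genes called rose to 201.

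The difference of the CKO effect between the stages was tested as an interaction in a fit of all 14 libraries. It called 1 gene of 13158 (0.0076%) and 0 of 31 members with edgeR, and DESeq2 called 64 genes (0.39%) and 0 members. H4c8, H3c7 and H1f1 had an unadjusted p under 0.05, beside 9.16% of all genes. The median of the members was −0.44, beside 0.00 for all genes. H4c8 had 2.17, 2.53, 2.50 and 1.03 CPM in GV CKO libraries, near the GV WT libraries. Ovulated CKO libraries had 2.54, 1.06 and 0.164 CPM, and ovulated WT libraries from 0.0382 to 0.120 CPM. The nearest values were 4.86 counts in ovulated CKO library 3 and 4.13 in ovulated WT library 2. H4c8 had too few counts to be tested between genotypes in ovulated oocytes. The interaction was 3.46 ± 1.01 on the log2 scale (SE; edgeR adjusted p = 0.286). Without ovulated CKO library 3 it was 3.95 and passed (adjusted p = 0.0111), in a fit that called 498 genes. Over all its alternatives adjusted p ran from 0.0111 to 0.688. With H4c8 resting on 8 counts in ovulated WT oocytes, this value has little depth behind it. H3c7 was −1.69 ± 0.59 (SE; edgeR adjusted p = 0.369) and H1f1 −1.64 ± 0.73 (SE; edgeR adjusted p = 0.518).

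Summed over the 57 replication-dependent genes, with no test, GV WT libraries had 142, 149, 163 and 151 CPM and GV CKO libraries 215, 214, 286 and 267 CPM. Each GV CKO library was above each GV WT library on this scale. Ovulated WT libraries had 56.6, 140 and 67.6 CPM and ovulated CKO libraries 258, 150 and 82.0 CPM, which overlapped. In CPM of total counts GV WT libraries ran from 109 to 183 and GV CKO libraries from 155 to 298, so the GV groups overlapped there too. Without H2bc4 the other 56 genes summed to 32.1 ± 6.15 in GV WT and 49.7 ± 9.18 CPM in GV CKO (SD, n = 4). They summed to 48.3 ± 17.0 in ovulated WT and 45.8 ± 20.6 CPM in ovulated CKO (SD, n = 3).

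By class, the summed H2B genes had 125 ± 11.4 CPM in GV WT and 207 ± 33.6 CPM in GV CKO (SD, n = 4), most of it from H2bc4. The H2A genes had 14.3 ± 1.18 and 22.1 ± 2.06 CPM (SD, n = 4). The groups lay apart for both classes on this scale and overlapped for both in CPM of total counts and in FPKM. H3 genes had 4.30 ± 1.00 and 5.87 ± 1.71 CPM and H4 genes 5.00 ± 1.19 and 6.90 ± 2.77 CPM, and these overlapped. The replication-dependent H1 genes went from 2.54 ± 1.45 CPM in GV WT (SD, n = 4) to 15.6 ± 10.3 CPM in ovulated WT oocytes (SD, n = 3). Most of the H1 sum in each WT library came from H1f1, which was uneven after ovulation. In CKO oocytes the H1 sum was 3.82 ± 0.68 CPM at the GV stage (SD, n = 4) and 7.75 ± 2.55 CPM after ovulation (SD, n = 3).

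**Figure D4:**
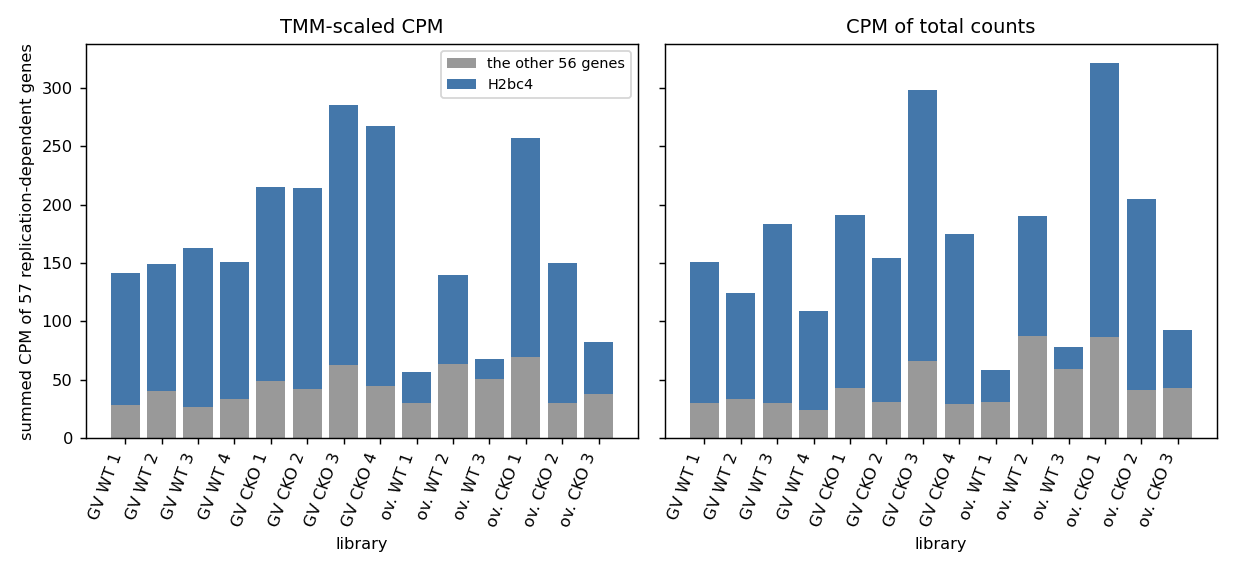
Summed CPM of the 57 replication-dependent histone genes in each library (bars from 0), split into H2bc4 (blue) and the other 56 genes (grey), on TMM-scaled CPM (left) and CPM of total counts (right). On the left the 4 GV CKO bars (214 to 286) all exceed the 4 GV WT bars (142 to 163), and on the right the groups overlap.

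In the clusters 9 pairs of an H2A and an H2B gene lay next to each other, with gaps between 163 and 280 bases. In 5 of the pairs both genes were under 1 FPKM in GV WT oocytes, and the other 4 were unequal. H2ac6, 239 bases from H2bc4, had 1.24 FPKM in GV WT where H2bc4 had 234 FPKM. H2ac12 had 0.128 FPKM in GV WT beside 12.0 FPKM for H2bc12, H2ac1 had 19.8 FPKM beside 3.60 FPKM for H2bc1, and H2ac11 had 0.995 FPKM beside 3.25 FPKM for H2bc11.

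Genes that act on histones were counted from lists. None of 27 tested genes of histone mRNA processing and transcription, nor of 42 histone chaperone and deposition genes, passed between genotypes at either stage with edgeR (at most 1 in each list and stage had an unadjusted p under 0.05, and their medians lay between −0.12 and 0.08). Between the stages of WT oocytes, 11 of the 27 processing genes rose and 9 fell, with a median of 0.37. Beside them, 29.7% of all genes rose and 34.0% fell, with a median of −0.08. Upf1, which triggers histone mRNA decay, rose from 11.1 ± 3.23 to 73.0 ± 6.66 CPM, and Casp8ap2, a factor of histone gene transcription, from 92.3 ± 15.8 to 406 ± 62.9 CPM. Lsm10, a subunit of the U7 particle that cuts histone pre-mRNA, fell from 216 ± 11.4 to 10.5 ± 6.14 CPM (edgeR adjusted p = 1.28e-05), and Hinfp, which activates H4 genes, from 17.1 ± 3.33 to 4.27 ± 1.27 CPM. Errors here are SD, with n = 4 for GV and n = 3 for ovulated WT libraries. Slbp, which binds the stem-loop and was singled out after its values were seen, had between 2428 and 3617 CPM in GV WT and between 1794 and 6238 CPM in ovulated WT oocytes (edgeR adjusted p = 0.227).

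Of the 42 chaperone and deposition genes, 22 rose and 8 fell in WT, with a median of 0.80, beside 29.7% up, 34.0% down and a median of −0.08 for all genes. Cabin1 and Ubn2, of the HIRA complex that deposits H3.3, rose from 24.6 ± 2.96 to 101 ± 21.5 and from 22.3 ± 8.13 to 90.4 ± 26.3 CPM. Anp32e, which removes H2A.Z, rose from 3.75 ± 1.00 to 21.4 ± 1.72 CPM. Chaf1b, of the complex that deposits H3 during replication, fell from 29.1 ± 3.75 to 1.15 ± 0.665 CPM, and the oocyte chaperone Npm2 from 1602 ± 590 to 586 ± 312 CPM (edgeR adjusted p = 0.00596). In CKO oocytes 19 rose and 7 fell, beside 25.8% and 29.9% of all genes. Among histone genes outside the naming series, 1 of 8 tested rose in WT (Cenpa, the centromeric H3, from 59.4 ± 7.09 to 104 ± 36.6 CPM) and 2 fell. Of 30 S-phase and proliferation genes, 10 rose and 11 fell in WT, with a median of 0.11, beside the same 29.7% and 34.0% of all genes.

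Many members had too few counts to test. Of the 67 members, 36 entered no test, 35 of them replication-dependent, and the highest of these was H3c1 at 0.852 CPM in 1 library. The authors' counts were fractional in 78.6% of the values above 0 of replication-dependent members, 47.8% of those of variants and 18.1% of those of all genes. Within the members, H2ac18 shared 88.7% of its 75-base stretches with other members, H2bc12 72.4%, H2bc11 50.4%, H4c8 37.1% and H2bc4 27.0%. H1f8, H1f0, H1f1, H2ac1, H3f3a, H3f3b, H2az1 and H2az2 shared 0%. Stretches shared with genes outside the members were not measured, and some counts of H3f3a, H3f3b and H2az1 were fractional. H3f3c had no transcript in this annotation and was left out, so what H3f3a shares with it was not measured. Values of the genes that share stretches are uncertain in how reads were split among copies.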

How the data were processed

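Oocyte RNA was measured with SMART-Seq2, per the labels' protocols, in 14 libraries grouped by stage and genotype as labelled. The authors deposited expected counts per gene, not scaled to library size, and FPKM values scaled to gene length and depth, in 1 table of each per stage. The build is mm10, per the submitters' processing notes. The aligner and counting tool are not given in the sources used here. Tables were joined by gene ID, and 10 members were found through the symbol of the ovulated table only. The members, lists and alternatives were chosen with earlier results of these data known.

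Expected counts were rounded to whole counts and tested with edgeR 4.0.16 in R 4.3.3 (TMM scaling, a robust quasi-likelihood fit, genes kept by filterByExpr at min.count 10, Benjamini-Hochberg adjustment over all genes, threshold 0.05). Genotypes were fitted on the libraries of a stage. Stage comparisons and the interaction came from a 14-library fit on the 16417 genes in both tables. The code was tested on simulated data. Alternatives were DESeq2 1.42.0, other scalings, no filter, other sample sets, a replicate block and each library left out. Scales for the overlap of groups were added after seeing the data. CPM are counts per TMM-scaled library size. Intervals on counts are exact (Clopper-Pearson) and cover counting error only, since PCR copies are not independent molecules.

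Members named were the variants, every member called in any comparison, the 3 with the highest FPKM at each stage and, per comparison, the 3 with the largest fold change at 1 CPM or more. From each list up to 4 called genes per direction with a mean of at least 10 CPM could be named. Other members served as neighbours, motif examples or counts and were chosen after their values were seen. No 2 replicates were near-duplicates, since chi-square over its degrees of freedom was at least 40.5 for each pair. Promoters came from RefSeq and transcripts from GENCODE M21.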

Additional observations from a re-analysis of the deposited data

Results flagged for a closer look

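Across 22 named members and 8 sums, each GV group of 4 libraries was checked for a single library far from the others, and chance flags about 1 in 20 groups. H2bc12 had 12.3 CPM in GV CKO library 3, with the other 3 between 5.71 and 6.19 CPM. H1f10 had 0.254 CPM in GV CKO library 1, with the others at or under 0.0367 CPM.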

How the results depend on the processing

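No member was called between genotypes under any alternative at either stage. For WT stages, members called higher stayed within 1.5 times of 9, but those called lower were 3 in CPM of total counts and between 4 and 11 with 1 library left out. In CKO stages, 14 of 54 members were called by DESeq2 (11 lower), against 8 of 31 with edgeR. Members called higher numbered 6 in CPM of total counts and 5 with the CKO libraries alone, and between 1 and 4 with 1 library left out. Members called lower numbered 1 in CPM of total counts, 8 without a filter on low counts, and between 4 and 10 with 1 library left out. The stage difference called between 0 and 1 member with 1 library left out. The summed replication-dependent level, as a log2 ratio of CKO over WT in GV oocytes, was 0.70 on TMM scaling, 0.52 in FPKM and 0.53 in total counts. For ovulated over GV it was −0.78 in WT, and between −1.28 and −0.54 with 1 library left out, −0.38 in total counts and −0.31 in FPKM. In CKO it was −0.59, and 0.021 in FPKM.

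Among the named members, the signs that turned belonged to values that were not called. For GV CKO over WT, H1f0 was 0.26 without GV WT library 1 and 0.10 without GV CKO library 2, H2aj 0.045 without GV CKO library 2 and H2ax 0.12 without GV WT library 1. With 1 library left out these 3 ran from −0.25 to 0.26, −0.42 to 0.045 and −0.41 to 0.12. For ovulated CKO over WT, H2aj (0.48 with all libraries) was −0.094 (up to 1.03) without CKO library 1, and H3f3a −0.030 (up to 0.82) without WT library 1. H2az1 was −0.08, −0.25, −0.06 and −0.06 without WT library 1, WT library 2, CKO library 1 and CKO library 3, and up to 0.48. The causes were not tested.

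The labels give no batches, and whether WT and CKO samples with the same number shared handling was not tested. Their deviations correlated at −0.249, 0.196, 0.334 and 0.332 in GV and −0.235, 0.261 and −0.0195 in ovulated libraries. Pairs with different numbers ran from −0.371 to 0.352 in GV and from −0.319 to 0.366 in ovulated libraries. With a replicate block, 0 members were called between genotypes, 7 rose and 6 fell in WT stages, and 2 rose and 5 fell in CKO stages.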
